A study of Chlorocebus sabaeus with 10 samples.

Results

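Expression of 10 histone deacetylase and corepressor genes was examined in livers of vervet monkeys fed a high fructose (HFr) diet or chow. The genes were chosen by name: the deacetylases HDAC2, HDAC3, HDAC5, HDAC6, HDAC8, HDAC10 and HDAC11 and the corepressors TRIM28, SIN3A and RCOR1. Earlier results of these data were known when they were chosen. All 10 were present among the 28078 deposited transcripts, each with 1 transcript. Of these, 7 had enough counts for the test between the diets, and HDAC3, SIN3A and RCOR1 did not. The samples were liver biopsies of 10 female Chlorocebus sabaeus, an Old World monkey, that had all lived on chow before the study. Of these animals, 5 then received the HFr diet and 5 stayed on chow, for 6 weeks, and each gave 1 polyadenylated RNA library. According to the methods of the study, animals were assigned to the diets so as to balance age and body weight. The mean age that the study reports was higher in the HFr group, without passing its test, and age was not adjusted for here. No animal was sampled before and after the change of diet. The comparison asks whether short exposure to fructose was accompanied by a different amount of transcript of these regulators.

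Histone deacetylases remove acetyl groups from lysines, on histones and on other proteins, and most of the nuclear ones act as parts of large corepressor complexes rather than alone. In liver, HDAC3 held by the nuclear receptor corepressor NCOR1 is known to hold back lipid synthesis genes, and class IIa enzymes such as HDAC5 move between cytoplasm and nucleus under the control of fasting and feeding hormones. TRIM28 is recruited by KRAB zinc finger proteins, SIN3A is the scaffold of the SIN3 complex, and RCOR1 is the scaffold of the CoREST complex, which also holds the histone demethylase KDM1A.

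None of the 7 tested genes passed the test between the diets. In edgeR's quasi-likelihood test over 7948 transcripts, 0 of the 7 had an unadjusted p under 0.05, and 4.29% of all tested transcripts had one (341 transcripts, of which 164, or 2.06%, were higher and 177, or 2.23%, lower on the HFr diet). After Benjamini-Hochberg adjustment no transcript passed 0.05 in edgeR or limma and 2 did in DESeq2, where the adjusted p of each of the 7 genes was 0.99997. The lowest unadjusted p from edgeR among the 7 genes belonged to TRIM28 (0.178). The ranges of the diets overlapped for all 10 genes, where 0.541% of all tested transcripts had no overlap (0.214% higher and 0.327% lower on the HFr diet). The fitted log2 fold changes lay between -0.15 (HDAC6) and 0.25 (HDAC5), with a median of 0.17 over the 7 genes and -0.0007 over all tested transcripts. That median was the value of HDAC10, and it moved when single animals were left out. It was 0.05 over 8 tested genes without HFr replicate 4 and 0.20 over 7 without HFr replicate 2. In whole liver, fewer cells of a type and less RNA per cell cannot be told apart.

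Normalized counts are library-scaled estimated counts (CPM, scaled by TMM, the trimmed mean method of edgeR), and they are not corrected for transcript length, so levels are compared between animals and not between genes. Libraries held between 2977282 and 4992505 estimated counts. Transcripts of the mitochondrial genome took 34.7% to 73.6% of them and left 864571 to 2657103 nuclear counts. The 10 genes together had between 548 and 1599 counts per animal. Neither mitochondrial share nor nuclear counts passed a test between the diets (two-sided exact permutation tests, p = 0.992 and p = 0.889). All 9 hepatocyte marker genes in the table, such as ALB and APOB, had counts, and their summed level ranged from 43575 to 67007 normalized counts on the HFr diet and from 37173 to 75905 on chow. Summed levels of the marker lists for macrophages, lymphocytes, endothelial cells, cholangiocytes, stellate cells and fibroblasts, blood and skeletal muscle overlapped between the diets as well (lowest two-sided exact permutation p = 0.444). Of the 34 tested markers, only ACTA2 had an unadjusted p under 0.05 from edgeR, against 4.29% of all tested transcripts. ACTA2, a smooth muscle actin listed here with the stellate cell markers, had a log2 fold change of -1.57 (SE 0.49). Among muscle markers MYH2, MYH7 and CKM were at 0 in every animal, as was the stellate cell marker LRAT. The remaining muscle markers had few counts summed over the 10 animals, 25 for ACTA1 and 7 for TNNT3.

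**Figure D1:**
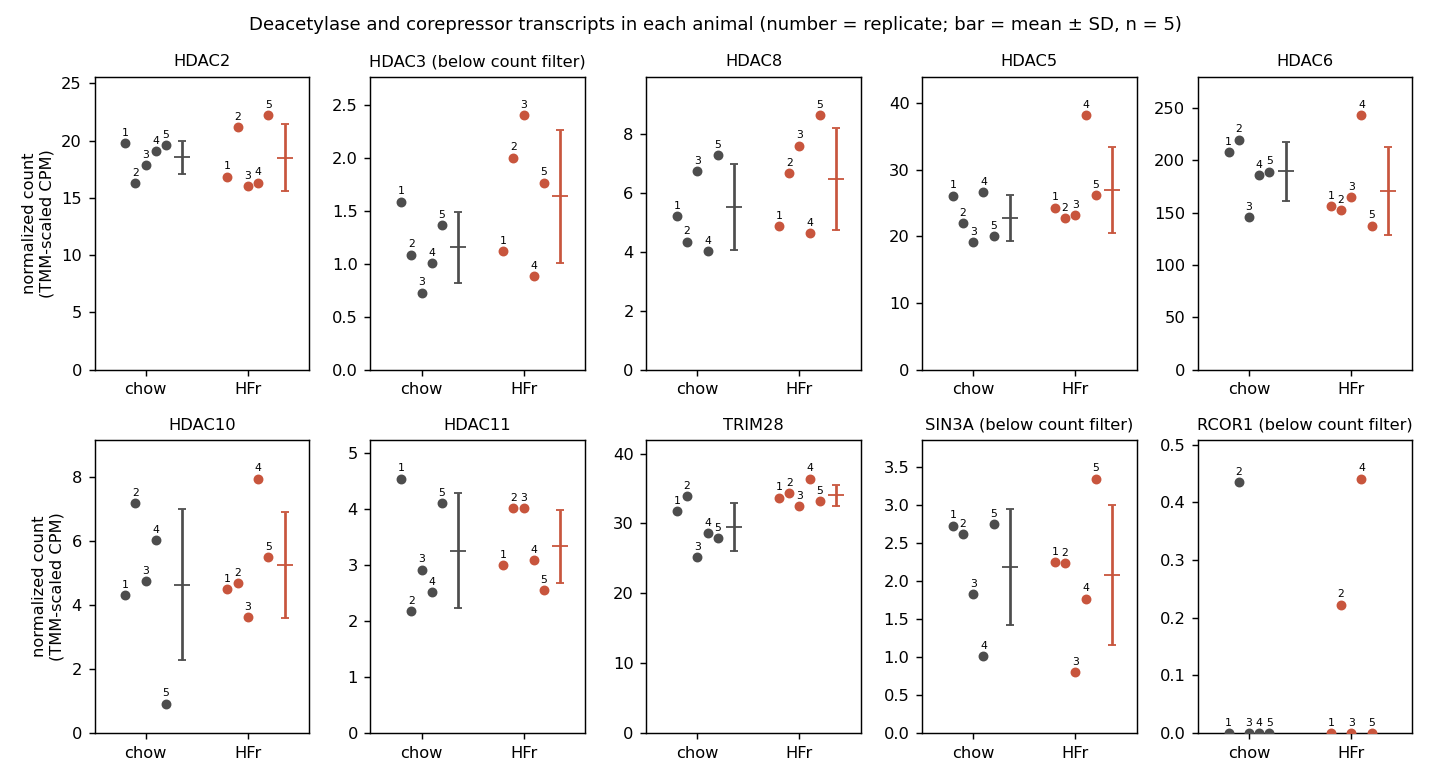
Normalized counts (TMM-scaled CPM, y axis, from 0) of the 10 genes in each of the 5 chow and 5 HFr animals, numbered by replicate, with the mean and SD beside each group except for RCOR1. TRIM28 shows the 5 HFr animals between 32.5 and 36.4 with chow replicate 2 at 33.9 among them, and the diets overlap in every panel.

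TRIM28, a corepressor that brings the histone methyltransferase SETDB1 and heterochromatin proteins to chromatin, lies on chromosome 6 of the ChlSab1.1 assembly from 50819833 to 50827011 (ENSCSAG00000001590). It had 33.7, 34.3, 32.5, 36.4 and 33.2 normalized counts in HFr replicates 1 to 5, and 31.8, 33.9, 25.1, 28.6 and 27.8 in chow replicates 1 to 5. All 5 HFr animals were thus above the chow mean, and chow replicate 2 was the single chow animal inside the HFr range. The means were 34.0 ± 1.50 on the HFr diet and 29.5 ± 3.44 on chow (mean ± SD of 5 animals). The log2 fold change was 0.21 (SE, the standard error, 0.15), with a 95% confidence interval from -0.11 to 0.52, or from 0.930-fold to 1.43-fold. The tests gave different answers for this gene. edgeR gave an unadjusted p of 0.178 and an adjusted p of 0.9996. The two-sided exact permutation test of the difference in means gave p = 0.0397, unadjusted, where 0.00794 is the smallest p that 5 animals against 5 allow. TRIM28 was 1 of the 10 genes under 0.05 in that test, and 3.93% of the 7948 tested transcripts and 3.57% of the 16066 with low counts admitted were under it. The equal-variance test used in the study, run here on log2 of the deposited normalized values, gave an unadjusted p of 0.00852 at a log2 difference of 0.25, and 4.16% of the 7908 transcripts in that test had an unadjusted p under 0.05. The coefficient of variation of TRIM28 within a diet was 8.83%, below the 9.83% that counting alone gives at its 57 to 169 counts per animal. edgeR and limma draw the spread of a transcript towards that of other transcripts at a similar level, and the equal-variance and permutation tests do not. Among 7159 tested transcripts with a gene symbol, the profile of TRIM28 over the 10 animals was most like that of SMAGP, PLXNB1 and GPR137 (Pearson's r of 0.953, 0.901 and 0.892 and Spearman's rho of 0.879, 0.830 and 0.952 on log2 normalized counts with a pseudocount of 1). These 3 were picked as the highest of many and share libraries and scaling with TRIM28.

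Of the class I deacetylases described here, which leave out HDAC1, HDAC2 was the most even between the diets. HDAC2 is a catalytic subunit of the SIN3, NuRD and CoREST complexes. The gene lies on chromosome 13 from 59873767 to 59905743 (ENSCSAG00000015692). It had 16.8, 21.2, 16.0, 16.3 and 22.2 normalized counts in HFr replicates 1 to 5. In chow replicates 1 to 5 it had 19.7, 16.3, 17.9, 19.1 and 19.6. HFr replicates 2 and 5 were above all chow animals and HFr replicate 3 was below all of them. The means were 18.5 ± 2.93 and 18.5 ± 1.44 normalized counts (mean ± SD of 5 animals), a log2 fold change of 0.01 (SE 0.16, 95% confidence interval -0.34 to 0.36). The interval ran from 0.791-fold to 1.28-fold.

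HDAC8, a class I enzyme that deacetylates the cohesin subunit SMC3, is on chromosome X from 62154365 to 62393197 (ENSCSAG00000011100). It had 4.87, 6.68, 7.61, 4.63 and 8.65 normalized counts in HFr replicates 1 to 5, and 5.22, 4.35, 6.74, 4.02 and 7.30 in chow replicates 1 to 5. HFr replicates 3 and 5 were above all chow animals, and the other 3 lay within the chow range. The log2 fold change was 0.23 (SE 0.27, 95% confidence interval -0.34 to 0.81, unadjusted p = 0.400 from edgeR), from 8 to 44 counts per animal. Without HFr replicate 5 it was 0.09 (SE 0.29), and without chow replicate 2 or 4 it was 0.15. The coefficient of variation within a diet was 26.5%, close to the 23.3% from counting alone.

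HDAC3, the catalytic subunit of the NCOR complex, is on chromosome 23 from 44253888 to 44263136 (ENSCSAG00000012474) and was too low to be tested. It had 3, 9, 6, 4 and 9 counts in HFr replicates 1 to 5 and 7, 5, 4, 2 and 3 in chow replicates 1 to 5. These sum to 31 on the HFr diet (95% exact Poisson interval 21.1 to 44.0, counting error only) and to 21 on chow (13.0 to 32.1). As normalized counts, HFr replicates 2, 3 and 5 were above all chow animals at 2.01, 2.40 and 1.77, and the means were 1.64 ± 0.628 and 1.16 ± 0.333 (mean ± SD of 5 animals, two-sided exact permutation p = 0.175). With every transcript that had a count in any animal admitted, edgeR gave a log2 fold change of 0.49 (SE 0.50) and a 95% confidence interval from -0.54 to 1.53. That interval, from 0.686-fold to 2.89-fold, spans 1. In that fit 4.71% of 16066 transcripts had an unadjusted p under 0.05.

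HDAC5, the class IIa deacetylase of the set, which binds MEF2 transcription factors and leaves the nucleus when phosphorylated, lies on chromosome 16 from 62274041 to 62315095 (ENSCSAG00000003494). It had 24.3, 22.7, 23.2, 38.2 and 26.1 normalized counts in HFr replicates 1 to 5. Chow replicates 1 to 5 had 26.1, 22.0, 19.1, 26.6 and 20.1. HFr replicate 4 stood alone, and the other 4 HFr animals were inside the chow range. The means were 26.9 ± 6.43 on the HFr diet and 22.8 ± 3.43 on chow (mean ± SD of 5 animals), a log2 fold change of 0.25 (SE 0.19, 95% confidence interval -0.15 to 0.65, unadjusted p = 0.203 from edgeR). Without HFr replicate 4 the log2 fold change was 0.08 (SE 0.17).

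The same animal was the highest for HDAC6, a mainly cytoplasmic class IIb enzyme that deacetylates alpha-tubulin. HDAC6 lies on chromosome X from 45928092 to 45952930 (ENSCSAG00000013197) and had the deepest counts of the set, from 371 to 1102 per animal. It had 156, 152, 165, 243 and 138 normalized counts in HFr replicates 1 to 5, and 208, 220, 146, 186 and 189 in chow replicates 1 to 5. Apart from HFr replicate 4, the HFr animals were all below 4 of the 5 chow animals, with chow replicate 3 as the exception. The means were 171 ± 41.6 on the HFr diet and 190 ± 28.2 on chow (mean ± SD of 5 animals). The log2 fold change of -0.15 (SE 0.20, 95% confidence interval -0.57 to 0.27, unadjusted p = 0.452 from edgeR) was -0.32 without HFr replicate 4 (SE 0.18, unadjusted p = 0.0960 from edgeR). The coefficient of variation of HDAC6 within a diet was 20.2% and that from counting alone 4.13%, so here the values differed by more than counting error. With a single library from each animal, differences between animals and between libraries cannot be told apart.

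HDAC10, the other class IIb enzyme, which deacetylates polyamines, had 4.49, 4.68, 3.61, 7.94 and 5.50 normalized counts in HFr replicates 1 to 5. In chow replicates 1 to 5 it had 4.31, 7.18, 4.74, 6.02 and 0.913, the last from 2 counts. HFr replicate 4 was again the highest animal and chow replicate 5 the lowest. The gene is on chromosome 19 from 32735406 to 32740818 (ENSCSAG00000005004). Its log2 fold change was 0.17 (SE 0.37, 95% confidence interval -0.63 to 0.96), and the sign rested on either of these animals: the value was -0.04 without HFr replicate 4 and -0.05 without chow replicate 5.

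HDAC11, the class IV enzyme, which removes fatty acyl groups from lysines, is on chromosome 22 from 49471368 to 49498179 (ENSCSAG00000009462). It had 2.99, 4.01, 4.01, 3.09 and 2.55 normalized counts in HFr replicates 1 to 5 and 4.54, 2.18, 2.91, 2.51 and 4.11 in chow replicates 1 to 5. All HFr animals lay inside the chow range. The log2 fold change was 0.03 (SE 0.30, 95% confidence interval -0.61 to 0.67), from 5 to 20 counts per animal.

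**Figure D2:**
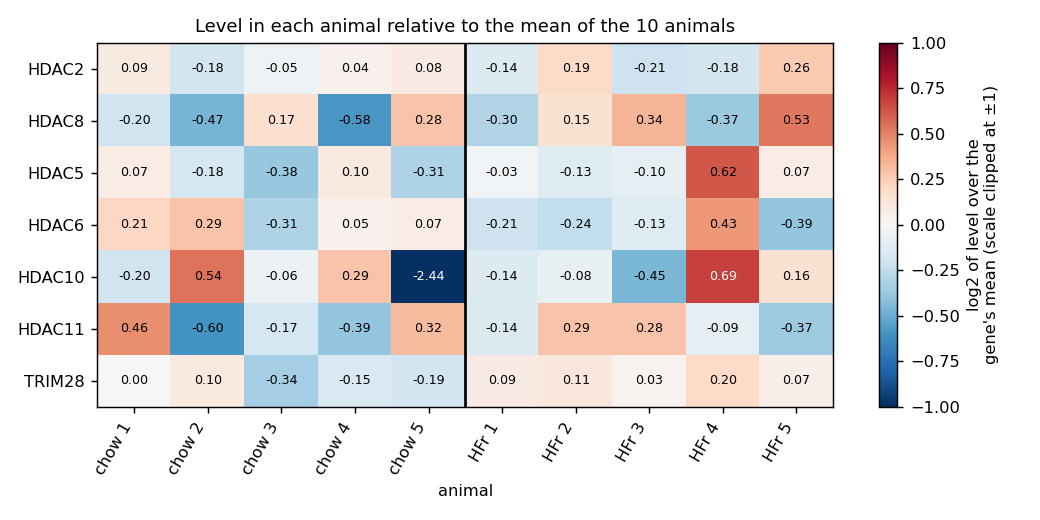
Log2 of the normalized count of the 7 tested genes in each animal over the mean of that gene in the 10 animals, with chow animals left and HFr animals right of the line and colors limited to ±1. HFr replicate 4 is the highest animal for HDAC5 (0.62), HDAC6 (0.43), HDAC10 (0.69) and TRIM28 (0.20) but not for HDAC2 (-0.18) or HDAC8 (-0.37), and HDAC10 is lowest in chow replicate 5 (-2.44).

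The order of the animals was not the same for all 7 tested genes. HFr replicate 4 had rank 1 of the 10 animals for HDAC5, HDAC6, HDAC10 and TRIM28, but 8 for HDAC2 and HDAC8 and 5 for HDAC11. HFr replicate 5 differed from it, with the highest HDAC2 and HDAC8 of all animals and the lowest HDAC6. HFr replicate 4 had the largest library, at 4992505 estimated counts, and a mitochondrial share of 62.2%; their part in these levels was not tested. Expressed as a share of the counts of the 10 genes, which does not depend on scaling between libraries, HDAC6 made up 63.0% ± 4.39 on the HFr diet and 68.2% ± 2.26 on chow (mean ± SD of 5 animals). TRIM28 made up 12.8% ± 1.47 and 10.6% ± 0.415, and HDAC5 made up 9.94% ± 0.865 and 8.24% ± 1.05. These shares add to a fixed total and overlapped between the diets, and they were not tested.

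SIN3A, on chromosome 26 from 7975484 to 8058279 (ENSCSAG00000014519), had 6, 10, 2, 8 and 17 counts in HFr replicates 1 to 5 and 12, 12, 10, 2 and 6 in chow replicates 1 to 5. The sums were 43 on the HFr diet (95% exact Poisson interval 31.1 to 57.9) and 42 on chow (30.3 to 56.8). The normalized counts were 2.08 ± 0.918 and 2.18 ± 0.759 (mean ± SD of 5 animals, two-sided exact permutation p = 0.849), and the fit that admits every transcript with a count gave a log2 fold change of -0.05 (SE 0.44). The 95% confidence interval ran from 0.512-fold to 1.83-fold.

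RCOR1, on chromosome 24 from 80538249 to 80664857 (ENSCSAG00000010154), was at the limit of detection. It had 1 count in HFr replicate 2, 2 counts in HFr replicate 4, 2 counts in chow replicate 2 and 0 in the other 7 animals. The limit that a count of 0 allows, 3 counts per library, corresponds to between 0.546 and 1.51 normalized counts in these libraries. All RCOR1 values were below that limit, so no fold change is given.

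**Figure D3:**
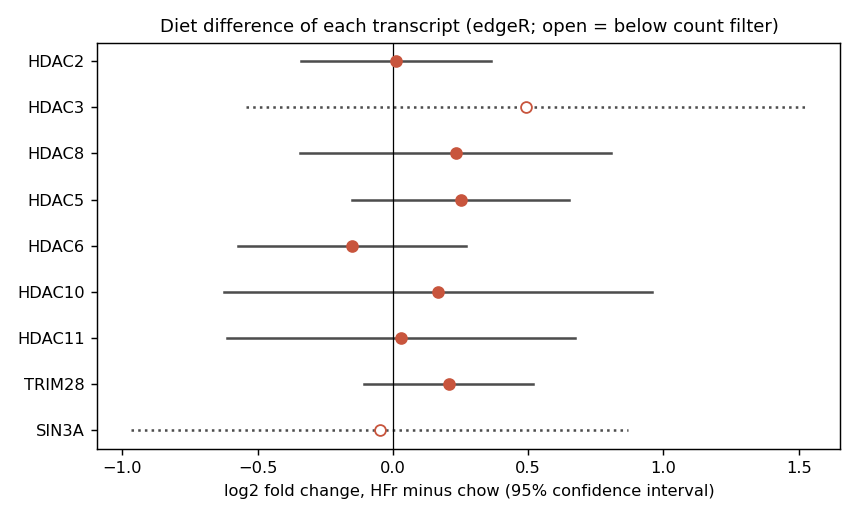
Log2 fold change between the diets (HFr minus chow, x axis) with its 95% confidence interval from edgeR for 9 genes, with open points and dotted lines for the 2 fitted only when low counts were admitted. Every interval crosses 0, and the widest belongs to HDAC3 (-0.54 to 1.53).

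**Figure D4:**
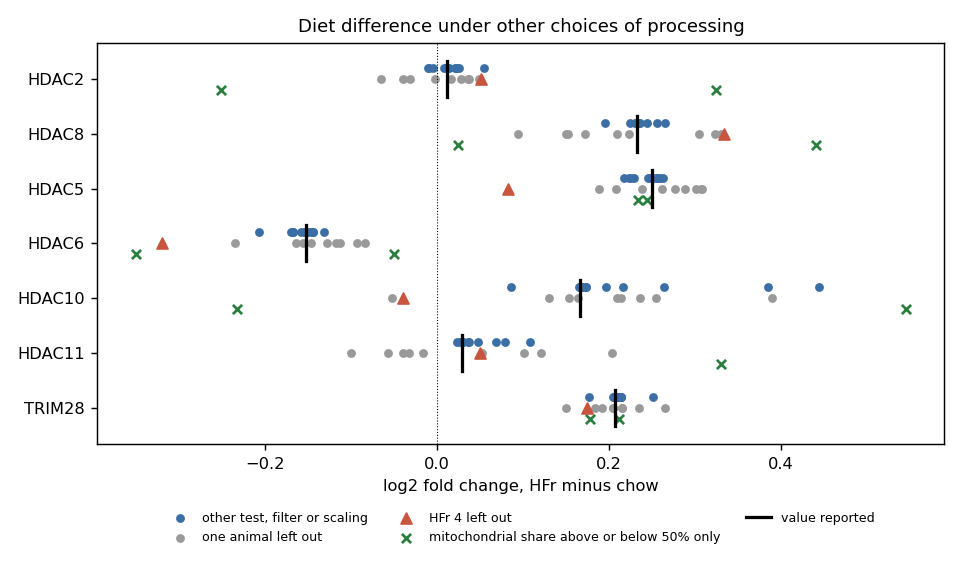
Log2 fold change between the diets (HFr minus chow, x axis) of the 7 tested genes, with the reported value as a black bar, other tests, filters and scalings as blue points, fits without 1 animal as grey points (red triangle without HFr replicate 4) and fits within animals above or below a mitochondrial share of 50% as green crosses. TRIM28 stays between 0.15 and 0.27 and HDAC5, HDAC6 and HDAC8 keep their signs, while HDAC2, HDAC10 and HDAC11 have values on both sides of 0.

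The partners of these proteins were described from lists written from general knowledge, with earlier results of these data known. They hold 71 names, of which 65 were in the table and 48 passed the count filter. Of the 48, 0 had an unadjusted p under 0.05 from edgeR, against the 4.29% of all tested transcripts. The fold change was positive for 16 and negative for 32, with a median of -0.07, where 49.8% of all tested transcripts had a positive one. The log2 fold changes ranged from -0.81 for ARID4A to 0.44 for ATF7IP.

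In the NCOR complex, which holds HDAC3, 4 of 5 genes were tested, with 1 positive and 3 negative fold changes. The nuclear receptor corepressor NCOR1 had 46.9 ± 18.8 normalized counts on the HFr diet and 69.5 ± 45.0 on chow (mean ± SD of 5 animals, log2 fold change -0.56, SE 0.41). No HFr animal reached the chow mean of NCOR1, but chow animals themselves ranged from 30.2 to 128. TBL1X, a WD40 subunit, had 17.3 ± 4.38 and 20.2 ± 4.15 (log2 fold change -0.23, SE 0.21).

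In the SIN3 complex, 10 of 13 genes in the table were tested, and 3 fold changes were positive and 7 negative. SAP18 had 96.2 ± 11.9 and 101 ± 12.5 normalized counts (mean ± SD of 5 animals, HFr and chow), a log2 fold change of -0.06 (SE 0.16). ARID4B, a chromatin-binding subunit, had 41.1 ± 8.34 and 51.0 ± 13.5 (log2 fold change -0.31, SE 0.20). Both differences were smaller than the spread between chow animals.

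In the NuRD complex, a nucleosome remodeler that carries HDAC2, 7 of 9 genes were tested, with 3 positive and 4 negative fold changes. The remodeling ATPase CHD4 had 106 ± 21.4 normalized counts on the HFr diet and 111 ± 18.7 on chow (mean ± SD of 5 animals, log2 fold change -0.06, SE 0.19). MBD2, which binds methylated DNA, had 40.3 ± 6.68 and 41.2 ± 8.07 (log2 fold change -0.03, SE 0.18). Neither differed beyond the spread between animals.

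In the CoREST complex 5 of 7 genes were tested, 1 positive and 4 negative. The RCOR1 paralog RCOR3 had 28.1 ± 1.59 normalized counts on the HFr diet and 30.2 ± 5.96 on chow (mean ± SD of 5 animals, log2 fold change -0.10, SE 0.17). HMG20B, a DNA-binding subunit, had 22.2 ± 3.90 and 19.0 ± 3.82 (log2 fold change 0.23, SE 0.19). Both differences were smaller than the SD of the chow animals.

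Among the 48 list genes that passed the filter, the lowest unadjusted p from edgeR was 0.0503, for ELMSAN1, the scaffold of the mitotic deacetylase complex. It had 7.01 ± 1.54 normalized counts on the HFr diet and 10.2 ± 3.60 on chow (mean ± SD of 5 animals, log2 fold change -0.56, SE 0.26), with all 5 HFr animals below the chow mean. DNTTIP1, which dimerizes that complex, had 6.94 ± 0.566 and 8.61 ± 1.04 (log2 fold change -0.29, SE 0.20), again with all 5 HFr animals below the chow mean. For DNTTIP1 edgeR gave an unadjusted p of 0.155 and the two-sided exact permutation test p = 0.0159, unadjusted and 1 of 3 under 0.05 among 65 list genes (2 of the 48 that passed the filter, against 3.93% of all tested transcripts). The third tested gene of this list, TRERF1, was negative as well (-0.27, SE 0.28), and MIER1, MIER2 and MIER3 were below the count filter.

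Of the TRIM28 partners, 3 of 5 were tested and all 3 fold changes were positive. SETDB1 had 17.0 ± 0.812 normalized counts on the HFr diet and 16.1 ± 2.43 on chow (mean ± SD of 5 animals, log2 fold change 0.08, SE 0.16). ATF7IP, its cofactor, had 11.3 ± 3.84 and 8.35 ± 3.77 (log2 fold change 0.44, SE 0.32). The third, the heterochromatin protein gene CBX3, had a log2 fold change of 0.003 (SE 0.26).

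Among the CtBP and TLE corepressors 5 genes were tested, with 2 positive and 3 negative fold changes. TLE1 had 74.7 ± 18.0 and 76.0 ± 17.8 normalized counts (mean ± SD of 5 animals, HFr and chow) and CTBP1 had 30.1 ± 3.40 and 32.6 ± 5.79. MEF2D, a transcription factor bound by HDAC5, had 13.1 ± 4.27 and 13.5 ± 3.66, and MEF2A was below the count filter with at most 8 counts in an animal. HDAC4, a class IIa paralog of HDAC5, had 6.90 ± 3.76 and 5.60 ± 2.53 (log2 fold change 0.20, SE 0.37). HDAC7 was below the count filter, with 37 counts summed over HFr animals and 44 over those on chow.

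The histone acetyltransferases, which oppose the deacetylases, included 9 tested genes of 10, with 2 positive and 7 negative fold changes. KAT2A, the catalytic subunit of the SAGA complex, had 87.2 ± 27.7 normalized counts on the HFr diet and 75.5 ± 27.4 on chow (mean ± SD of 5 animals, log2 fold change 0.20, SE 0.28). CREBBP, a coactivator of hormone-responsive transcription, had 35.1 ± 3.65 and 40.6 ± 4.50 (log2 fold change -0.21, SE 0.15, unadjusted p = 0.187 from edgeR). These values overlapped between the diets.

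**Figure D5:**
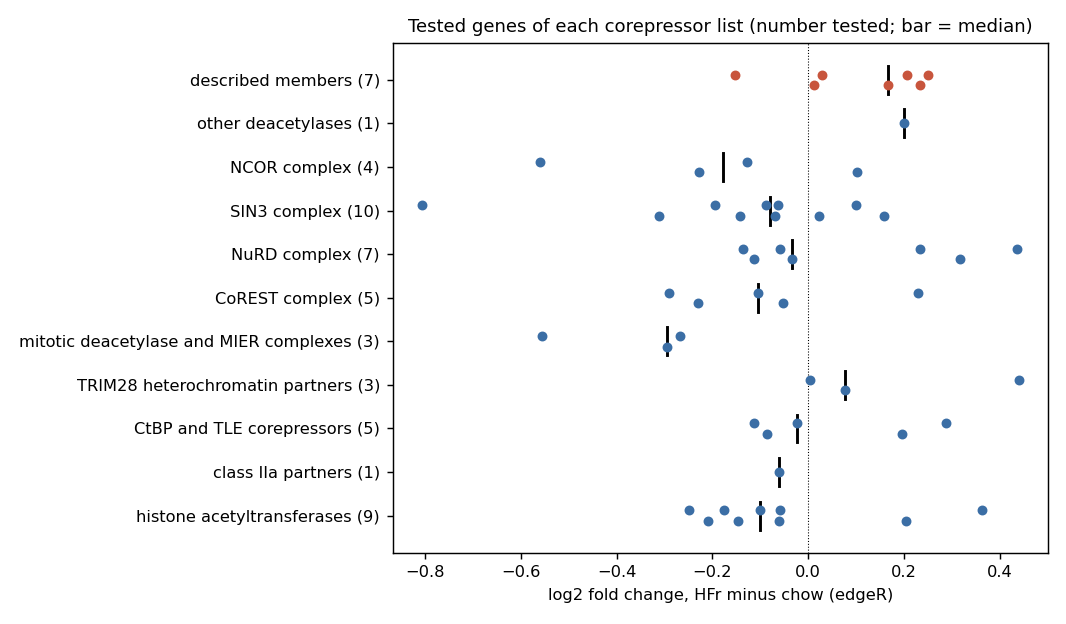
Log2 fold change between the diets (HFr minus chow, x axis) of each tested gene, by list, with the number tested in brackets and the median as a black bar. The 7 described genes have a median of 0.17 and the 48 list genes a median of -0.07. Without HFr replicate 4 the medians are 0.05 (8 described genes tested) and -0.09. No point is of a gene with an unadjusted p under 0.05 in the edgeR fit plotted here.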

How the data were processed

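Per the methods and labels, libraries were made with a stranded mRNA kit, demultiplexed with CASAVA 1.8, aligned with STAR 2.5.3a to ChlSab1.1 and quantified per Ensembl transcript in Partek Flow with an expectation-maximization algorithm. The deposited estimated counts carry no normalization. The deposited normalized signal values were scaled by the authors with TMM and were used here only in 1 alternative. Counts were rounded, and transcripts were kept by filterByExpr at a minimum count of 10 and a minimum total of 15. HFr was set against chow in edgeR 4.0.16 in R 4.3.3 (quasi-likelihood test, TMM, diet as the only term), with p-values adjusted over all 7948 tested transcripts. The standard error is the log2 fold change divided by the square root of F. Single values were compared by exact permutation over 252 assignments. The procedure was tested on simulated data. The members and lists were chosen with earlier results of these data known. Named list genes are those with an unadjusted p under 0.05 or, with fewer than 2 of these, the 2 with the highest mean. ARID4A, CBX3, TRERF1 and other list genes were named after their values were seen, as was ACTA2. Coordinates are as listed in the deposited table. Alternatives used DESeq2 1.42.0, limma 3.58.1 (pseudocount 1 or 0.1), other scalings and filters, an equal-variance test on transcripts above 0 in all 10 animals, a replicate block and fits without each animal. No label ties an animal to a batch or day. The spread behind the p-values thus mixes differences between animals, between libraries and between any batches. Intervals on counts cover counting error only.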

Additional observations from a re-analysis of the deposited data

Results flagged for a closer look

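In groups of 5 animals, the value of 1 animal stood apart from the rest of its diet group by Dixon's criterion for HDAC5 and HDAC6, both in HFr replicate 4. HDAC5 had 38.2 normalized counts there (173 estimated counts) where the remaining HFr animals lay between 22.7 and 26.1. HDAC6 had 243 normalized counts there (1102 estimated counts) where the remaining HFr animals lay between 138 and 165. Of 18 groups examined, chance flags about 1 in 20.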

How the results depend on the processing

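None of 26 alternatives for test, scaling, filter, samples or covariates brought a tested gene of the family under an unadjusted p of 0.05 except the equal-variance test on the deposited normalized values, which counted 1, TRIM28 (329 of 7908 transcripts, 4.16%, in that test). The log2 fold change of TRIM28 stayed between 0.15 and 0.27, that of HDAC5 between 0.08 and 0.31, that of HDAC6 between -0.35 and -0.05, that of HDAC8 between 0.02 and 0.44 and that of HDAC3 between 0.04 and 1.04. For HDAC6, HDAC8 and HDAC3 both ends came from the fits within animals above or below a mitochondrial share of 50%. The sign of HDAC2 turned with the replicate block (-0.0045), with limma at a pseudocount of 1 (-0.010) or 0.1 (-0.011) and, in fits chosen after seeing the data, in the 6 animals with a mitochondrial share above 50% (-0.25, against 0.32 in the 4 below 50%). In the 4 animals below 50% HDAC10 was at -0.23 and SIN3A at 0.34. Leaving out single animals moved the value from -0.065 to 0.051 for HDAC2, from -0.052 to 0.39 for HDAC10, from -0.10 to 0.20 for HDAC11 and from -0.30 to 0.12 for SIN3A. The cause of these turns was not tested. Of 48 list genes, 1 had an unadjusted p under 0.05 with DESeq2 size factors in edgeR or with robust estimation (ELMSAN1 both times). Those fits had 341 and 320 of all 7948 transcripts under 0.05. ELMSAN1 was also the 1 of 37 list genes with at least 10 counts in every animal, a fit with 254 transcripts under 0.05. It was the 1 of 50 without mitochondrial transcripts, a fit with 371 transcripts under 0.05. Both fits tested other sets of transcripts than the 7948, and their totals are not given here. With any count admitted KAT7 was the 1 of 65 (756 of 16066 transcripts, 4.71%). With the equal-variance test DNTTIP1 was the 1 of 48 (329 of 7908, 4.16%). With the mitochondrial percent as a covariate 406 of 7948 transcripts were under 0.05, with 2 of 48 list genes among them (NCOR1 and ARID4A). Leaving out 1 animal gave 0 to 2, with ELMSAN1 among them (-0.62 to -0.65) without HFr replicate 4 or 5 or without chow replicate 2, 4 or 5, ARID4A without HFr replicate 3 (-1.13) or chow replicate 2 (-1.05), CHD3 higher without HFr replicate 5 or chow replicate 5 (0.54 each) and ATF7IP higher without chow replicate 3 (0.72). Over all transcripts the count was 124 with library size only and 756 with any count admitted, and without 1 animal it ranged from 261 to 408. The number past adjustment was 2 with DESeq2, 1 with library size only and 2 in the animals above 50%. The labels do not state that replicate numbers pair the animals. Same-numbered animals had correlations from -0.287 to 0.0986, and so few values cannot exclude a pairing. The replicate block gave 271 transcripts under 0.05. Counts of 20 or fewer per animal limit HDAC3, HDAC11, SIN3A and RCOR1.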

Other observations

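KAT7, the catalytic subunit of the HBO1 acetyltransferase complex, was below the count filter, with a sum of 8 counts on the HFr diet and 24 on chow and at most 9 in an animal. With every transcript that had a count admitted, edgeR gave a log2 fold change of -1.52 (SE 0.70) with an unadjusted p of 0.0395, or 0.838 when adjusted. KAT8, the acetyltransferase of histone H4 lysine 16, had 8.19 ± 1.23 normalized counts on the HFr diet and 6.26 ± 1.38 on chow (SD, n = 5 each), with 4 of 5 HFr animals above the chow mean. edgeR gave 0.36 on the log2 scale (SE 0.23) at an unadjusted p of 0.136, and the two-sided exact permutation test gave p = 0.0476. MTA3, a NuRD subunit below the count filter, had 3.22 ± 0.545 and 2.09 ± 1.08 normalized counts (SD, n = 5 each, two-sided exact permutation p = 0.0556). These 3 genes were picked from the 65 list genes after their values were seen.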
